A study of Arabidopsis thaliana with 9 samples.

Results

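The 7 genes described here, AT3G10020, AT4G10270, AT1G33055, AT1G19530, AT3G27220, AT1G72940 and AT1G05575, belong to the transcripts that accumulate when Arabidopsis runs short of oxygen. They were taken by locus, and each is paired with 1 probe set of the 22810 on the array. All 7 passed the filter on low signal, which left 13647 probe sets. They were chosen by their signals in the mSPL13 comparisons of these same arrays. Their differences between mSPL13 and the other genotypes are therefore given as a description, with no test of their own, and support nothing further; the calls listed for them follow from that choice.

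Plants sense oxygen through ERF transcription factors of group VII, such as RAP2.12, which are oxidised by plant cysteine oxidases and degraded by the N-degron pathway while oxygen is plentiful. When oxygen falls these factors persist and switch on a core set of genes in many cell types. That set holds the fermentation enzymes, such as ADH1 and PDC1, and a larger number of small proteins whose function is poorly known, to which most of the 7 genes belong. In air-grown plants, dense tissues such as the shoot meristem are also known to be low in oxygen.

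RNA came from whole Arabidopsis thaliana seedlings of 3 genotypes, with 3 single-channel Affymetrix arrays each. The mSPL13 seedlings are Col-0 carrying a mutated SPL13 gene that resists the microRNA miR156, driven by the native promoter of SPL13. The SPL13 seedlings are Col-0 carrying the non-mutated gene under the same promoter, and the Col-0 seedlings are the untransformed wild type that all groups share as background. SPL13 encodes a SQUAMOSA-promoter-binding transcription factor. All seedlings had 3 days at 4 °C in the dark and then 3 days at 22 °C in the light on 1% sucrose, and the labels name no low-oxygen treatment. The arrays of a genotype are labelled as biological replicates from independent seed lots. The sources used here do not give the number of transgenic lines, and the SPL13 transcript was not analysed here. In whole seedlings, fewer cells of a type and less RNA per cell cannot be told apart.

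Array medians lay between 175.6 and 190.8 signal units, and the log2 values of any pair of arrays correlated at 0.959 to 0.988. The SPL13 arrays stood apart in 66 chloroplast-encoded probe sets, whose median log2 difference from the Col-0 mean was -2.35, -0.99 and -0.80 in SPL13 replicates 1, 2 and 3, against -0.03 to 0.30 in mSPL13. The ratio of 3' to 5' signal of the GAPDH control, which rises as RNA breaks down, was 1.01 to 1.10 in mSPL13, 0.838 to 1.03 in SPL13 and 0.944 to 0.999 in the Col-0 wild type. The same ratio was 1.10 to 1.28 in mSPL13 for ubiquitin, against 1.05 to 1.09 in SPL13 and 1.05 to 1.2 in Col-0, and for actin it was 2.27 to 3.21 in mSPL13, against 2.21 to 2.94 in SPL13 and 2.49 to 2.67 in Col-0. The mSPL13 arrays were above those of SPL13 for ubiquitin and overlapped them for GAPDH and actin. They were above those of Col-0 for GAPDH and overlapped them for ubiquitin and actin. Of 6 root markers 4 were measured and none was at 0. Their summed signal was 23758 to 25522 in mSPL13, 25152 to 27228 in SPL13 and 26811 to 29424 in the Col-0 wild type. PYK10, EXPA7 and EXPA18 did not pass against either genotype, with log2 fold changes against SPL13 of 0.04 ± 0.09, 0.22 ± 0.18 and -0.15 ± 0.15 and against Col-0 of -0.07 ± 0.09, -0.09 ± 0.18 and -0.50 ± 0.15. EXPA18 was called lower than Col-0 without Col-0 replicate 3 (-0.61) and in the fit blocked by replicate number. The fourth, NAI2, needed for endoplasmic reticulum bodies, fell in mSPL13 (log2 fold change -0.60 ± 0.11 (SE) against SPL13, limma adjusted p = 0.0097, and -0.67 ± 0.11 against Col-0, limma adjusted p = 0.00377). Leaving out mSPL13 replicate 1 ended the call against SPL13 (-0.53). Of 6 green tissue markers 3 were measured, with sums of 49145 to 51549 in mSPL13, 50831 to 54349 in SPL13 and 47386 to 54030 in the Col-0 wild type. These markers, PRK, RCA and LHCB4.2, passed against neither genotype and differed in sign. Their log2 fold changes were -0.24 ± 0.11, -0.20 ± 0.10 and 0.21 ± 0.12 against SPL13. Against Col-0 they were 0.04 ± 0.11, -0.14 ± 0.10 and 0.13 ± 0.12. The part of the chloroplast signals, these ratios and the root markers in the results below was not tested.

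The comparisons with mSPL13 ask what differs when SPL13 escapes miR156. Of the 7 genes, 5 had their highest signals in mSPL13 and the other two their lowest. The largest difference was that of AT1G19530, a gene of little known function that has been described as a target of the DELLA protein RGA. Its signal was 639.5, 1005.4 and 750.7 in mSPL13, 287.6, 294.0 and 311.5 in SPL13 and 157.0, 208.9 and 421.0 in the Col-0 wild type. The lowest mSPL13 array was above the other 6 arrays, while SPL13 lay within the spread of Col-0. The mSPL13 mean was 799 ± 188 (SD, n = 3), which is 2.53-fold that of SPL13 (log2 fold change 1.34 ± 0.26, moderated SE) and 3.07-fold that of Col-0 (1.62 ± 0.26).

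AT3G10020 encodes a plant protein of unknown function that is induced by low oxygen in many cell types. Signals were 2262.5, 1878.9 and 2630.6 in mSPL13, 1048.9, 1180.6 and 1254.5 in SPL13 and 703.6, 996.8 and 1376.4 in the Col-0 wild type. Again no mSPL13 array overlapped the others, and the 3 Col-0 arrays spread on both sides of SPL13. The mSPL13 mean was 2257 ± 376 units (SD, n = 3), 1.91-fold that of SPL13 (log2 fold change 0.94 ± 0.20) and 2.24-fold that of Col-0 (1.16 ± 0.20).

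AT1G33055 encodes another low-oxygen-induced protein of unknown function. It had 509.1, 617.0 and 540.8 units in mSPL13, 286.2, 362.4 and 383.0 in SPL13 and 200.1, 243.7 and 258.2 in the Col-0 wild type. This was the only one of the 7 genes whose 3 genotypes did not overlap in any pair, with SPL13 in the middle. The mSPL13 mean was 556 ± 55.5 units (SD, n = 3), 1.59-fold that of SPL13 (log2 fold change 0.67 ± 0.15) and 2.27-fold that of Col-0 (1.18 ± 0.15). All SPL13 arrays were above all Col-0 arrays in 6.98% of the probe sets tested.

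AT4G10270 belongs to the wound-responsive protein family. It measured 893.4, 790.1 and 679.4 units in mSPL13, 338.4, 363.6 and 529.0 in SPL13 and 216.1, 477.1 and 306.4 in the Col-0 wild type. SPL13 and Col-0 overlapped, and mSPL13 was above both. Its mean there was 788 ± 107 units (SD, n = 3), with a log2 fold change of 0.92 ± 0.23 against SPL13 and 1.25 ± 0.23 against Col-0. Its neighbour AT4G10265, of the same family, has no probe set paired with it here.

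AT3G27220, a protein with kelch repeats, had 302.3, 233.4 and 239.3 units in mSPL13, 107.5, 164.2 and 231.6 in SPL13 and 105.9, 113.2 and 141.2 in the Col-0 wild type. The mSPL13 arrays were above all others, but SPL13 replicate 3 came within 2 units of the lowest of them. The log2 fold change was 0.61 ± 0.22 against SPL13 and 0.99 ± 0.22 against Col-0. Without SPL13 replicate 1 the difference from SPL13 was 0.36.

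The other two genes had lower mean signals in mSPL13. AT1G72940 encodes a protein with a TIR domain and a nucleotide-binding site, the domains of plant immune receptors. It lies in a cluster of related TIR genes, AT1G72920 and AT1G72950 among them, and whether its probe set also binds their transcripts was not tested. It had 113.9, 86.2 and 105.1 units in mSPL13, 137.0, 137.6 and 143.0 in SPL13 and 252.8, 153.2 and 124.8 in the Col-0 wild type. All 3 mSPL13 arrays were below the other 6, and Col-0 replicate 1 was far above its own group. The log2 fold change was -0.39 ± 0.21 against SPL13 and -0.64 ± 0.21 against Col-0. The second of these was -0.38 without Col-0 replicate 1 and -0.84 without Col-0 replicate 3, and the first was -0.25 when the pseudocount was raised to the 40th percentile.

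AT1G05575 encodes a small protein known to be induced by lack of oxygen. Its signals were 134.0, 103.5 and 145.2 in mSPL13, 134.8, 161.8 and 168.1 in SPL13 and 176.8, 153.6 and 158.1 in the Col-0 wild type. The mSPL13 arrays were below those of Col-0 and overlapped those of SPL13. The log2 fold change was -0.25 ± 0.16 against SPL13 and -0.32 ± 0.16 against Col-0, and without mSPL13 replicate 2 the values were -0.13 and -0.19. A pseudocount at the 40th percentile gave -0.21 against Col-0. All mSPL13 arrays were below all Col-0 arrays in 10.5% of the probe sets tested.

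**Figure D1:**
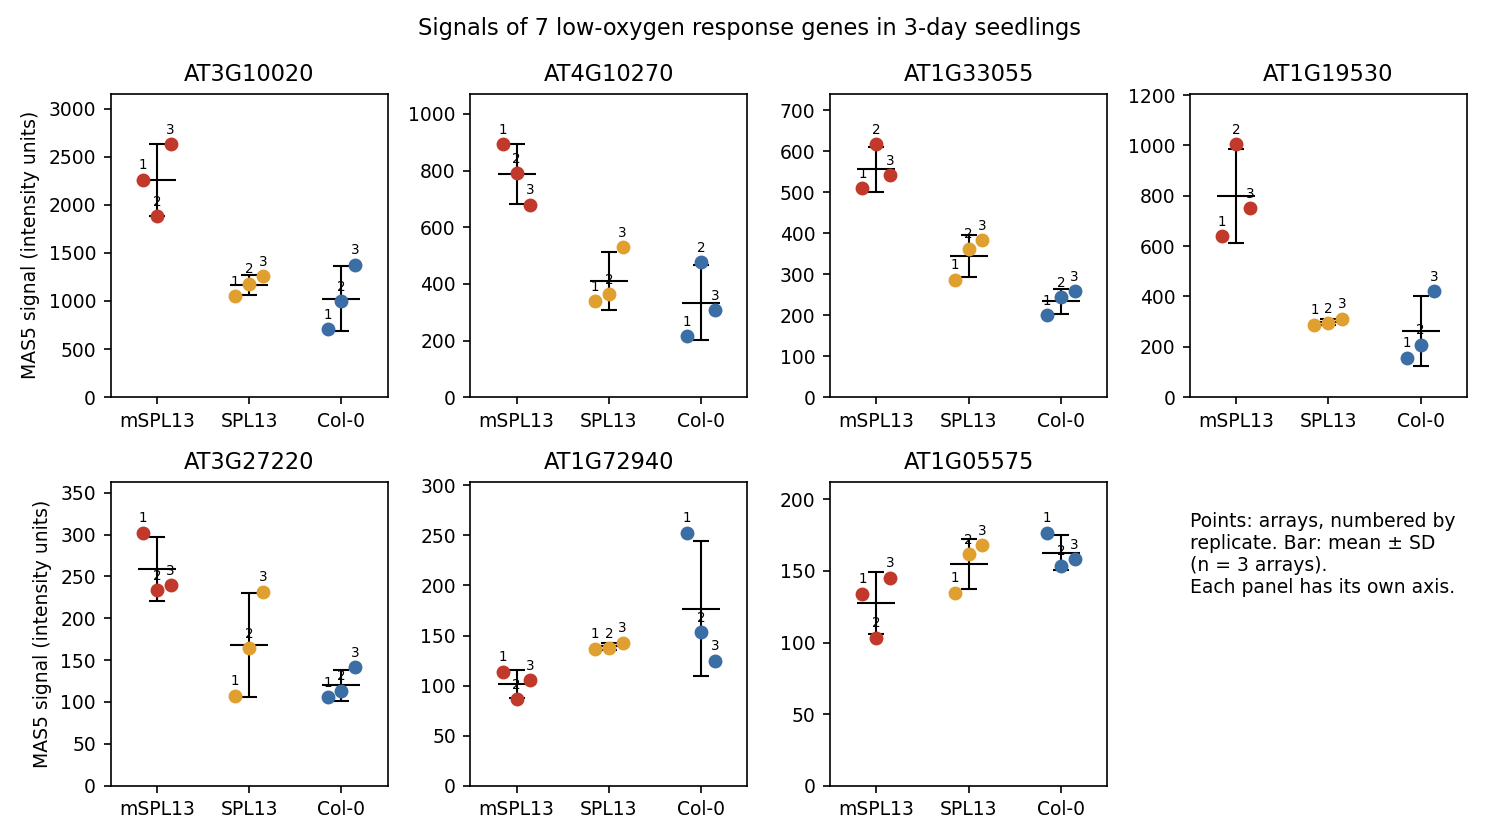
MAS5 signal (intensity units, linear axis from 0) of the 7 genes in mSPL13, SPL13 and Col-0. Points are arrays numbered by replicate, and bars are the mean ± SD of 3 arrays. In the first 5 panels all mSPL13 arrays are above the other 6; for AT1G72940 they are below them.

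Against SPL13, 4 of the 7 genes were called higher in mSPL13 (limma, Benjamini-Hochberg adjusted p under 0.05) and 0 lower, where 1.86% of all probe sets tested were called higher and 3.03% in either direction. Against Col-0, 5 of the 7 were called higher and 0 lower, where 2.07% of all were called higher and 4.37% in either direction. The genes called in both were AT3G10020, AT4G10270, AT1G33055 and AT1G19530, as were 0.916% of all probe sets tested, and AT3G27220 was called against Col-0 alone. These contrasts chose the genes, so nothing is read from these shares. All 3 mSPL13 arrays exceeded all 6 others in 5 of the 7 genes, and in 6.6% of all probe sets tested. They were below all 6 in AT1G72940, and in 5.33% of all. The median log2 fold change of the 7 was 0.67 against SPL13 and 1.16 against Col-0, beside -0.001 and 0.013 over all probe sets tested.

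Since the choice of the genes fixes these calls, how often they recur in other settings is no support for them. The settings that end a call are listed as a description. Leaving out 1 mSPL13 or SPL13 array also cut the calls against SPL13 over all probe sets, from 414 to 200 to 288. A call lost this way therefore need not rest on the array left out. AT1G19530 lost its call against SPL13 without mSPL13 replicate 2 (log2 fold change 1.17), and AT3G10020 when either SPL13 replicate 1 or 1 of mSPL13 replicates 1 and 3 was left out (0.82 to 0.93). AT1G33055 lost it when 1 of SPL13 replicates 1 and 2 or any mSPL13 array was left out (0.55 to 0.72), and AT4G10270 lost it in those cases and without Col-0 replicate 3 (0.81 to 1.02). With no filter on low signal all 4 lost it, with log2 fold changes of 0.67 to 1.34. AT4G10270 also lost it with no pseudocount (0.96), with quantile normalization (0.90), with median centring (0.89), without trend (0.92) and in the fit blocked by replicate number (0.92). AT3G27220 lost its call against Col-0 when 1 of Col-0 replicates 1 and 2 or of mSPL13 replicates 1 and 3 was left out (0.88 to 1.03), and with no filter (0.99). AT1G72940 was called lower than Col-0 once, without Col-0 replicate 3 (-0.84).

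**Figure D2:**
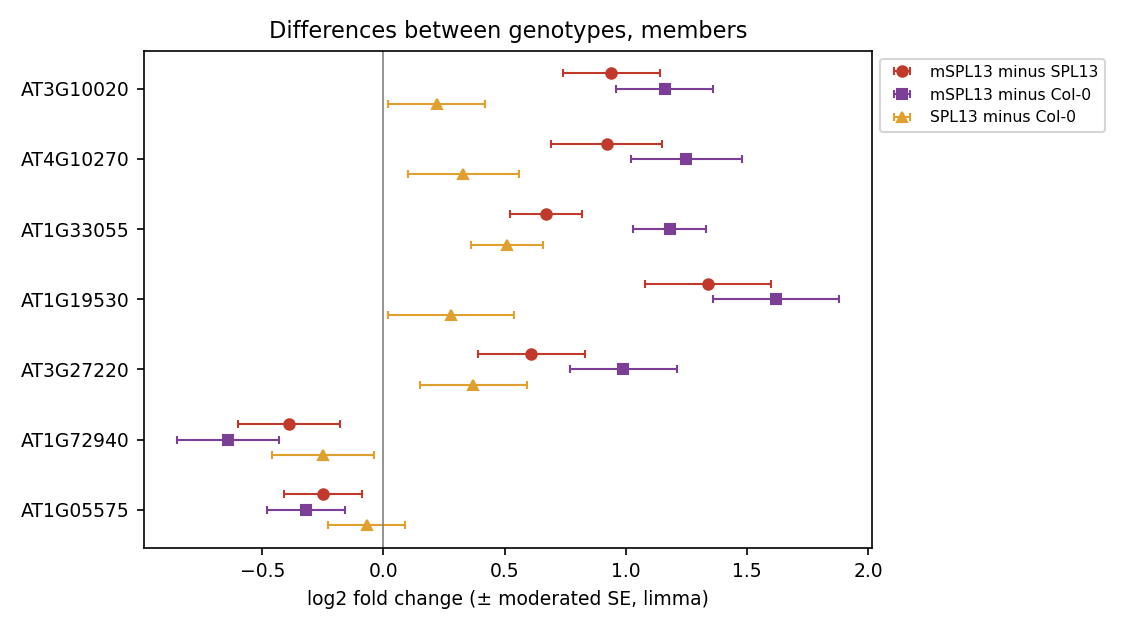
Log2 fold changes of the 7 genes (x axis, ± moderated SE from limma) for mSPL13 minus SPL13, mSPL13 minus Col-0 and SPL13 minus Col-0. The first 5 genes lie right of 0 in all 3 comparisons, with values for mSPL13 minus Col-0 between 0.99 and 1.62, and AT1G72940 and AT1G05575 lie left of 0.

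The comparison of SPL13 with Col-0 asks what the non-mutated transgene changes, and it did not enter the choice of the genes, although it shares its arrays with the comparisons that did. None of the 7 genes passed (limma, 0 called at an adjusted p under 0.05 and 1 at an unadjusted p under 0.05), where 0.0513% of all probe sets were called and 8.83% had an unadjusted p under 0.05. The gene with the smallest p was AT1G33055, which averaged 344 ± 51.0 units in SPL13 and 234 ± 30.2 in Col-0 (SD, n = 3 each). Its log2 fold change was 0.51 ± 0.15 (limma adjusted p = 0.336). It kept its direction whichever array was left out (0.42 to 0.63). AT3G27220 (0.37 ± 0.22, limma adjusted p = 0.657), AT4G10270 (0.33 ± 0.23, 0.724), AT1G19530 (0.28 ± 0.26, 0.795) and AT3G10020 (0.22 ± 0.20, 0.785) were also positive. AT1G72940 (-0.25 ± 0.21, limma adjusted p = 0.774) and AT1G05575 (-0.07 ± 0.16, 0.948) were negative.

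Several of these signs rest on 1 array. Without Col-0 replicate 1 the SPL13 minus Col-0 values were -0.02 for AT3G10020, -0.001 for AT1G19530, 0.07 for AT4G10270, 0.01 for AT1G72940 and -0.01 for AT1G05575. Without Col-0 replicate 3 they were 0.46 for AT3G10020, 0.66 for AT1G19530 and -0.45 for AT1G72940. AT3G27220 had 0.63 without SPL13 replicate 1 and 0.14 without SPL13 replicate 3, and AT4G10270 had 0.61 without Col-0 replicate 2 and 0.14 without SPL13 replicate 3. The sign of AT1G05575 turned without SPL13 replicate 1 (0.02).

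In all 7 genes the SPL13 mean lay between those of mSPL13 and Col-0. A step was taken to exceed the spread within the groups where the ranges of mean ± SD did not overlap. For AT1G33055 each step in this order did so, and for AT3G10020, AT4G10270, AT1G19530 and AT1G72940 only the step to mSPL13 did. For AT3G27220 neither step did, although all its mSPL13 arrays were above all its SPL13 arrays. The means of AT1G05575 in SPL13 and Col-0 did not differ beyond their spread, nor did those in mSPL13 and SPL13. The SPL13 mean was in the middle in 41.3% of all probe sets tested and in 79.4% of the 282 that were higher in mSPL13 than in Col-0, in 54.4% of those higher in mSPL13 than in both others and in 87.3% of those lower in mSPL13 than in Col-0. This order is therefore common.

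Within SPL13 all 7 genes ranked the outer arrays alike, with replicate 1 lowest and replicate 3 highest, where 36.1% and 29.2% of all probe sets tested had these arrays at those ends. Col-0 replicate 1 was the lowest Col-0 array for the 5 genes that were higher in mSPL13, against 32% of all probe sets, and it was the highest for both AT1G72940 and AT1G05575, against 35.9% of all. Within mSPL13 these 5 shared no order, and each replicate was the lowest for 1 or 2 of them. Over the 9 arrays, the log2 signals of the 5 genes correlated with each other at r = 0.79 to 0.93 in 10 pairs, which the genotype differences feed. After the genotype means were taken off, the same pairs ranged from 0.15 to 0.67. The strongest tie left was between AT1G72940 and AT1G19530, at -0.89 within genotypes and -0.91 over the 9 arrays. The widest spread was in Col-0, where AT1G72940 lay 0.52, -0.13 and -0.39 from its mean and AT1G19530 -0.56, -0.19 and 0.75. These genes also ran opposite in mSPL13, but in SPL13 both were highest in replicate 3. AT1G05575 ranged from -0.42 to 0.48 within genotypes against the 5. Within an array all genes are read from the same RNA, and these correlations are descriptions.

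**Figure D3:**
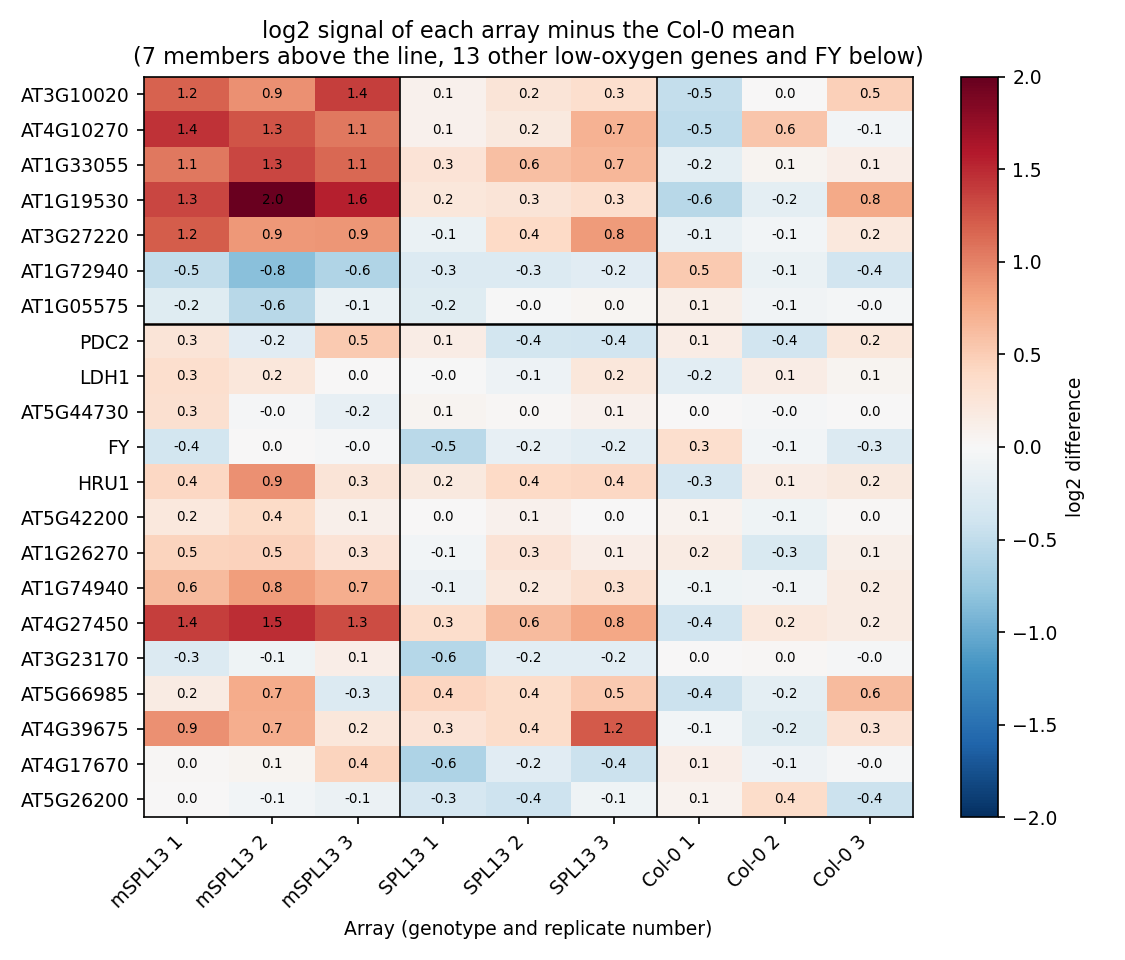
Log2 signal of each array minus the mean of the 3 Col-0 arrays (colour and printed value), for the 7 genes above the line and 13 other low-oxygen genes and FY below it. The first 5 rows and AT4G27450 are at 0.86 or more in all 3 mSPL13 arrays, which no other row is. SPL13 replicate 3 is above SPL13 replicate 1 in every row shown except PDC2 and AT5G42200.

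Genes of like pattern were sought among all probe sets of a single gene, by Pearson correlation over the 9 arrays. This measure ignores the size of a difference. The values given are the highest of many probe sets, so no shared regulation is read from them. The closest of all was AT4G27450 to AT1G33055 (r = 0.988, and 0.88 within genotypes), followed for that gene by IQD21, of the calmodulin-binding IQ-domain family (0.977), and AT4G39900 (0.969). The pattern of AT3G10020 was closest to AT1G21680 (0.982), the ubiquitin-conjugating enzyme gene UBC28 (0.978) and AT2G03280 (0.961). AT4G10270 was closest to OTC, the ornithine carbamoyltransferase gene (0.978), AT5G04520 (0.964) and the sterol glucosyltransferase gene SGT (0.949). AT1G19530 was equally close to AT1G23790, BUB3.2 and the plastid ATP synthase subunit gene ATPC2 (0.964 each). AT3G27220 was closest to AT3G10770 (0.941), AT2G37500 and AT4G14230 (0.939 each). AT1G72940 was closest to AT5G66590 (0.952), AT2G25220 (0.945) and AT1G80230 (0.938), and AT1G05575 to the co-chaperone gene HOP1 (0.969), AT2G39130 (0.961) and AT3G60080 (0.957). No gene appeared in more than one of these lists, and no list held another of the 7 genes. The genes listed differed in the size of their change. In mSPL13, OTC was 1.17-fold SPL13 and 1.23-fold Col-0 and was called in neither comparison. AT1G21680 was 1.69-fold SPL13 and 2.02-fold Col-0 and was called in both.

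The wider low-oxygen response was read from 63 further genes, of which 22 have a probe set paired with them and 13 passed the filter on low signal. This list was drawn up with earlier results of these data known. The counts and calls for its genes are therefore a description and give no independent support. The list had also held FY, which acts in RNA 3' end processing and is no part of the pathway, and with it the counts of genes that rose or fell were the same. Against SPL13, 2 of the 13 rose in mSPL13 and 0 fell (1.86% and 1.17% of all probe sets), and 3 had an unadjusted p under 0.05 (16.7% of all). Their median log2 fold change was 0.23. Against Col-0, 2 rose and 0 fell (2.07% and 2.3% of all), and 5 had an unadjusted p under 0.05 (20% of all), with a median of 0.21. The genes that rose were AT4G27450 and AT1G74940 in both comparisons. In SPL13 against Col-0, 0 of 13 passed with limma (0.0513% of all) and 3 had an unadjusted p under 0.05 (8.83% of all), with a median of 0.05.

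AT4G27450, a low-oxygen-induced gene of the family named after aluminium-induced proteins, measured 2277.9, 2407.5 and 2159.5 units in mSPL13, 1095.0, 1347.3 and 1487.4 in SPL13 and 653.9, 996.9 and 965.7 in the Col-0 wild type. The 3 genotypes did not overlap. It rose 1.74-fold against SPL13 (log2 fold change 0.80 ± 0.16, limma adjusted p = 0.0145) and 2.62-fold against Col-0 (1.39 ± 0.16, limma adjusted p = 0.00035). The call against SPL13 was lost when SPL13 replicate 1 or 1 of mSPL13 replicates 1 and 2 was left out (0.68 to 0.80), and that against Col-0 held in all 20 alternatives.

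AT1G74940 encodes an FCS-like zinc finger protein, of a family whose members bind the SnRK1 kinase. It had 487.4, 561.4 and 521.7 units in mSPL13, 281.3, 359.0 and 388.8 in SPL13 and 289.3, 290.8 and 344.6 in the Col-0 wild type. The mSPL13 arrays were above all others, and the log2 fold change was 0.59 ± 0.14 against SPL13 (limma adjusted p = 0.0372) and 0.73 ± 0.14 against Col-0 (limma adjusted p = 0.0104). The first call was lost without any one SPL13 or mSPL13 array (0.46 to 0.68) and with no filter on low signal, and the second without Col-0 replicate 2 (0.69).

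Fermentation and sugar breakdown was covered by 3 tested genes of 13, and 0 passed in any comparison (limma, 0 at an unadjusted p under 0.05, beside 16.7% and 20% of all probe sets in the mSPL13 comparisons). PDC2, a pyruvate decarboxylase, averaged 440 ± 116 units in mSPL13, 329 ± 77.6 in SPL13 and 382 ± 87.5 in the Col-0 wild type (SD, n = 3 each). LDH1, the lactate dehydrogenase, averaged 737 ± 86.8 in mSPL13, 662 ± 80.0 in SPL13 and 643 ± 83.6 in the Col-0 wild type. The mSPL13 arrays of both overlapped those of the other genotypes. The log2 fold change of AT5G44730 was -0.01 ± 0.14 against SPL13 and 0.05 ± 0.14 against Col-0. ADH1, PDC1, the sucrose synthases SUS1 and SUS4, RAP2.12, HRE1, HRE2, PCO1 and PCO2 have no probe set paired with them and were not analysed here. No gene of the oxygen-sensing pathway was tested. FY had a log2 fold change of 0.17 ± 0.18 against SPL13 and -0.13 ± 0.18 against Col-0.

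Among regulators and signalling genes, 1 of 4 tested rose in each mSPL13 comparison, AT1G74940 above, beside 1.86% and 2.07% of all probe sets. HRU1, a universal stress protein induced by low oxygen, had a log2 fold change of 0.19 ± 0.18 against SPL13 and 0.53 ± 0.18 against Col-0 (limma adjusted p = 0.115). AT1G26270, related to phosphatidylinositol kinases, had 0.27 ± 0.14 and 0.39 ± 0.14 (limma adjusted p = 0.366 and 0.148). Of 6 tested genes of little known function, AT4G27450 was the 1 that rose, in each comparison, beside the same shares. AT4G39675 averaged 1246 ± 297 units in mSPL13, 1278 ± 508 in SPL13 and 793 ± 153 in the Col-0 wild type, with both transgenic groups overlapping. Its log2 fold change was 0.00 ± 0.24 against SPL13 and 0.63 ± 0.24 against Col-0 (limma adjusted p = 0.999 and 0.155). AT4G17670, also an FCS-like zinc finger gene, had 0.59 ± 0.18 against SPL13 and 0.18 ± 0.18 against Col-0 (limma adjusted p = 0.09 and 0.625).

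**Figure D4:**
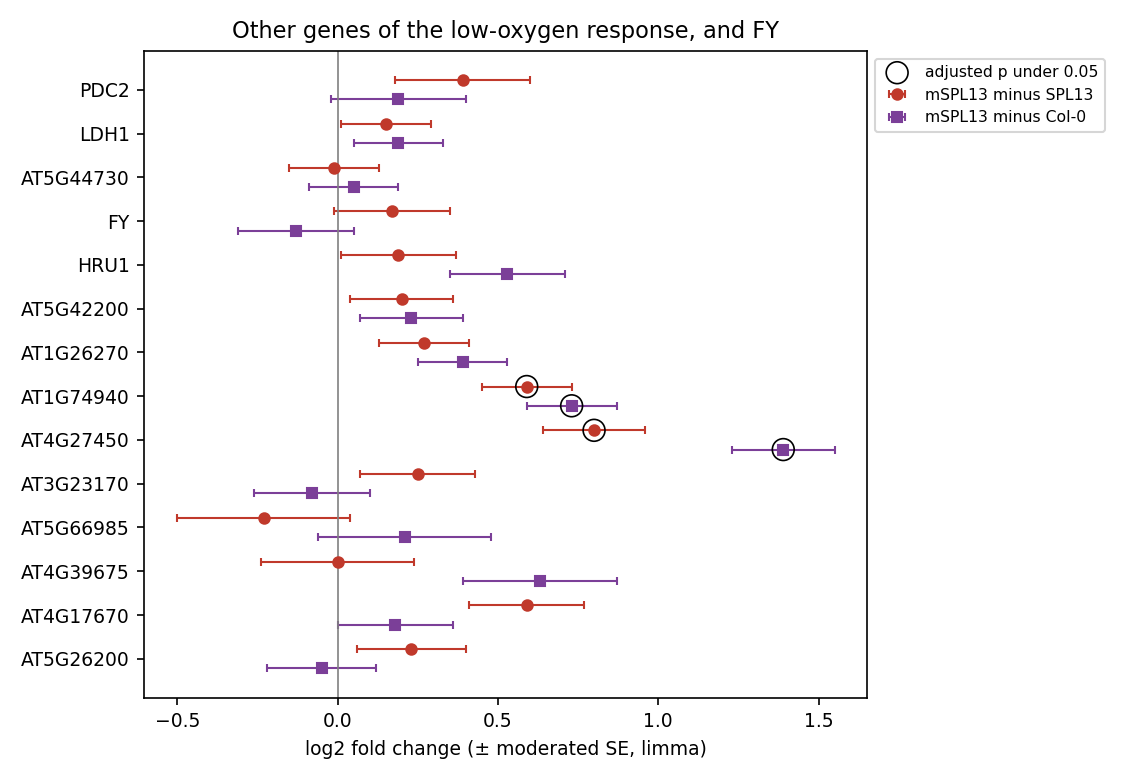
Log2 fold changes (x axis, ± moderated SE from limma) of 13 other low-oxygen genes and FY for mSPL13 minus SPL13 and mSPL13 minus Col-0. Rings mark an adjusted p under 0.05, which AT1G74940 and AT4G27450 reach in both comparisons, while PDC2 and LDH1 reach it in neither.

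The remaining 9 of the 22 genes were below the filter. HRA1, a repressor that dampens the low-oxygen response, lies 2 genes from AT3G10020 on chromosome 3 and is given for that reason. It had 98.7, 201.4 and 105.0 units in mSPL13, 74.9, 68.1 and 70.4 in SPL13 and 55.4, 103.8 and 64.7 in the Col-0 wild type. The mSPL13 arrays were above SPL13 and overlapped Col-0 (without the filter, limma adjusted p = 0.291 against SPL13 and 0.261 against Col-0). Of the 9 genes, 2 had all mSPL13 arrays above all SPL13 arrays and 3 above all Col-0 arrays, beside 12.3% and 12.6% of the probe sets tested, and without the filter 0 of the 9 were called in any comparison.

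Within 2 genes on either side of the 7 lie 28 genes, of which 16 have a probe set and 9 were tested. In mSPL13 against SPL13, 0 of 9 passed, and against Col-0 1 of 9 did, beside 3.03% and 4.37% of all probe sets in either direction. That one, AT3G27200, lies 2 genes from AT3G27220 and is named because it was called (log2 fold change 0.71 ± 0.19, limma adjusted p = 0.0491). It averaged 327 ± 26.5 units in mSPL13, 264 ± 72.2 in SPL13 and 194 ± 33.7 in the Col-0 wild type (SD, n = 3 each). Its call was lost when 1 of Col-0 replicates 1 and 2, SPL13 replicate 3 or any mSPL13 array was left out (0.63 to 0.74), and in 11 of 19 alternatives in all.

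The wound-responsive family that holds AT4G10270 had 2 other tested members, and 0 passed with limma in any comparison (1 at an unadjusted p under 0.05, in mSPL13 against Col-0, where 20% of all were). AT4G28240 had a log2 fold change of 0.15 ± 0.12 against SPL13 and 0.32 ± 0.12 against Col-0 (limma adjusted p = 0.152). AT4G05070 had 0.03 ± 0.17 and 0.25 ± 0.17 (limma adjusted p = 0.959 and 0.451). The difference between AT4G10270 and these genes was not tested.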

How the data were processed

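The authors deposited linear intensity values made with MAS5 in GCOS, per the submitters' processing notes. The trimmed mean of every array was 500.1, so the arrays share a global scaling. Scanner files and detection calls were not used here. Probe sets were named through the platform's pairing table, in which 13513 have 1 gene, 503 several and 8730 none. The TAIR10.1 gene table, used for names and gene order only, held 13436 of these single genes. Promoter and protein sequences were not used here.

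Signals were transformed as log2(signal + 20.7), the 20th percentile of all signals excluding 64 controls, and probe sets with a mean above the 40th percentile (6.922) were kept. The 9 arrays entered a single limma 3.58.1 fit (R 4.3.3) that estimates each genotype's mean (eBayes with trend, 6 residual and 7.92 prior degrees of freedom), and p-values were Benjamini-Hochberg adjusted over 13647 probe sets. Every adjusted p is from limma, and errors are SD for signals and moderated SE for log2 fold changes. Precision is limited by the number of arrays.

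The 7 genes and all gene lists were chosen with earlier results of these data known. Named beyond the 7 were the called genes of each list, its 2 tested genes of smallest p per comparison, and the 3 genes most correlated with each of the 7. On simulated data the pipeline recovered 38.8% of 1.5-fold, 86.6% of 2-fold and 100% of 4-fold changes for mSPL13 versus SPL13. These shares were 35.8%, 85.1% and 97% for mSPL13 versus Col-0, and 35.8%, 86.6% and 97% for SPL13 versus Col-0. Each share is over 66 or 67 changed probe sets among 13647. The simulated noise was normal and independent between probe sets, which real arrays need not follow, so the shares are not the power of these data. Alternatives were other pseudocounts, filters and normalizations, no trend, compared groups only, the replicate block, array weights and each array left out. Tables used Python 3.11.15, pandas 2.3.3 and matplotlib 3.10.9.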

Additional observations from a re-analysis of the deposited data

How the results depend on the processing

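The count of probe sets called was 414 for mSPL13 versus SPL13, 236 with no filter on low signal, 688 with array quality weights and 200 to 468 when 1 array was left out. For mSPL13 versus Col-0 it was 596, 373 with no filter and 248 to 903 with 1 array left out, the last without Col-0 replicate 3. For SPL13 versus Col-0 it was 7, 14 under a 40th-percentile pseudocount, 1 with no filter, 24 with median centring, 1 without trend, 2 on the compared groups only and 1 to 148 with 1 array left out. Of the 7 low-oxygen genes, 4 were called against SPL13, 0 with no filter and 1 to 4 with 1 array left out. Against Col-0, 5 were called, and 4 to 6 with 1 array left out. The 6, without Col-0 replicate 3, were 5 called higher and AT1G72940 called lower. Of the 14 wider genes with FY, 2 were called against SPL13, 1 with no filter and 0 to 2 with 1 array left out, and 2 against Col-0, 1 to 2 with 1 array left out. Leaving FY out of that list, a choice made after seeing the data, left these counts at 2, 2 and 0. SPL13 versus Col-0 called 0 of either set in every alternative. The causes of these shifts were not tested.

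The replicate numbers were not taken as pairs. Deviations of same-numbered arrays from their group means correlated at -0.0602 to 0.149. Those of differently numbered arrays of different genotypes correlated at -0.16 to 0.197. These ranges overlap and cannot show whether the numbers mark a shared batch. With the replicate block the counts were 431, 624 and 8, with 3 and 5 of the 7 genes called in the mSPL13 comparisons.

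None of the changes of sign concerned a called value. AT4G05070 in mSPL13 versus SPL13 was -0.01 with median centring and -0.13 to 0.27 with 1 array left out. AT4G39675 in that comparison was -0.0001 under a 40th-percentile pseudocount, -0.04 with median centring, -0.09 with array quality weights and -0.17 to 0.30 with 1 array left out. AT5G44730 was 0.04 with array quality weights and -0.14 to 0.10 with 1 array left out, and -0.09 to 0.15 against Col-0. With 1 array left out, mSPL13 versus Col-0 gave -0.24 to 0.01 for EXPA7, -0.27 to 0.04 for FY, -0.01 to 0.39 for PDC2 and -0.03 to 0.11 for PRK. SPL13 versus Col-0 gave -0.12 to 0.02 for AT1G05575, -0.001 to 0.66 for AT1G19530, -0.45 to 0.01 for AT1G72940 and -0.02 to 0.46 for AT3G10020.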

Other observations

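Genes that respond to mitochondrial dysfunction, a state that induces some low-oxygen genes too, were covered by 2 tested members of a list of 9, and 0 passed with limma (2 at an unadjusted p under 0.05 in each mSPL13 comparison, beside 16.7% and 20% of all probe sets). UPOX, a mitochondrial stress marker, had 326.8, 251.7 and 259.4 units in mSPL13, 138.8, 163.6 and 194.4 in SPL13 and 179.1, 147.1 and 257.1 in the Col-0 wild type. Its log2 fold change was 0.69 ± 0.19 against SPL13 (limma adjusted p = 0.0741) and 0.50 ± 0.19 against Col-0 (0.161). It was called higher than SPL13 on the compared groups only, with array quality weights or without Col-0 replicate 3 (0.69 in each), and higher than Col-0 without Col-0 replicate 3 (0.70). NDB2, an alternative NADH dehydrogenase, had -0.41 ± 0.15 and -0.37 ± 0.15 (limma adjusted p = 0.185 and 0.191). Of 12 touch, wounding and reactive oxygen genes, ZAT10, a zinc finger factor, was the 1 tested. It averaged 94.4 ± 13.7 units in mSPL13, 125 ± 16.6 in SPL13 and 168 ± 87.5 in the Col-0 wild type (SD, n = 3 each), and its log2 fold change was -0.34 ± 0.25 against SPL13 and -0.62 ± 0.25 against Col-0 (limma adjusted p = 0.541 and 0.183). Its Col-0 spread came from replicate 1, at 268.6 units against 117.6 and 116.6 in the other two, the same array that was highest for AT1G72940.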
